A study of Mus musculus with 30 samples.

Results

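The mitochondrial ribosome is the machine that translates the few proteins encoded by mitochondrial DNA, and its own proteins are encoded by nuclear genes whose symbols begin with Mrpl (large subunit) or Mrps (small subunit). The genes described here are the protein-coding genes with such a symbol followed by a digit that reached at least 1 TPM (a transcript abundance corrected for transcript length and library total) in at least 3 libraries. All 77 such genes in the table passed that minimum, 48 with an Mrpl and 29 with an Mrps symbol, of 29861 genes in the table and 13644 that passed. Another annotated gene, Mrpl33, was not analysed here. The members lie on 17 chromosomes, 11 of them on chromosome 11.

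Each mitochondrial ribosomal protein is made in the cytosol, imported, and assembled on a ribosomal RNA transcribed from mitochondrial DNA. The finished ribosome makes only hydrophobic core subunits of the respiratory chain complexes and of ATP synthase, so oxidative phosphorylation needs both this ribosome and the cytosolic ribosome that makes the nuclear-encoded subunits. Some members descend from bacterial ribosomal proteins, and others were added during the evolution of mitochondria.

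RNA was measured in CCG-HTA-1, a primary tail fibroblast line from UMHet3 mice (a genetically mixed stock) at passage 4, with donor mice aged 5 to 8 weeks per the labels (8 to 11 weeks in the label of Dihydrorotenone replicate 1). Cells were exposed for 48 hours to DMSO (6 libraries) or to 1 of 8 compounds (3 libraries each), in high-glucose DMEM without pyruvate, at 37 C, 10% CO2 and ambient oxygen. Antimycin A blocks respiratory complex III, Dihydrorotenone is a rotenone derivative that blocks complex I, and Diphenyleneiodonium Cl inhibits flavin-containing enzymes. Cardamonin is a plant chalcone, Clofilium tosylate a potassium channel blocker and Podofilox an inhibitor of tubulin polymerisation, and the labels name the other two compounds as BerberineA and AEG 3482. Doses are not used here. All libraries come from 1 cell line, so p-values measure only the spread between these libraries, which may be technical. Library numbers run consecutively within each group, so an order or batch effect and the compound cannot be told apart.

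The listed genes sum to 92.7% to 93.7% of the fixed TPM total in each library, and sequencing depth is unknown. Of 10 fibroblast markers 10 reached 1 TPM, with summed levels of 11900 to 13500 TPM in DMSO. Keratinocyte, endothelial, skeletal muscle, melanocyte, chondrocyte and adipocyte marker sums stayed at or below 7.86 TPM in every library, with Krt5, Myod1 and Plin1 at 0 throughout; the chondrocyte sum was 3.73 to 6.18 TPM in DMSO. The leukocyte and macrophage list, of which 3 of 4 genes reached 1 TPM, summed to 24.4 to 29.5 TPM in DMSO. In these bulk samples fewer cells of a type and less RNA per cell cannot be told apart.

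The start regions of the members are shown first, since their sequence did not enter the choice of members; no set of letters searched stood in most of them. RefSeq promoter windows (250 bases before to 50 after the start, GRCm38.p6) were matched to 68 of the 77 members. Of these, 36.8% held the ETS letters CCGGAAG, the core bound by GABPA, a factor known for its role at nuclear genes of mitochondrial proteins, against 9.93% of 27025 genes with a window. The letters GCATGCGC, known from the factor NRF1 (nuclear respiratory factor 1), stood in 10.3% of members against 3.05% of genes. The YY1 letters GATGGCGG stood in 7.35% against 1.97%, and the E-box CACGTG in 7.35% against 8.09%. The letters TGACNNNGC of the element bound by NRF2 (the stress factor encoded by Nfe2l2) stood in 20.6% against 14%, and the ATF4 letters TGATGNAA in 0 of 68 against 4.51%. Both strands were searched, and no set of letters contains another. These matches describe letters and not bound sites. The genes with a window were not limited to those that passed the TPM minimum, as every member did. The part of expression in these shares was not tested.

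The first 4 stretches below, each the 120 bases before the start, were chosen after values were seen because they hold these letters, in capitals, and belong to members that were higher in Cardamonin. They are chr11:58171544-58171663 on the plus strand for Mrpl22, chr19:45006443-45006562 on the minus strand for Mrpl43, chr9:98601680-98601799 on the minus strand for Mrps22 and chr3:94443216-94443335 on the plus strand for Mrpl9.
Mrpl22: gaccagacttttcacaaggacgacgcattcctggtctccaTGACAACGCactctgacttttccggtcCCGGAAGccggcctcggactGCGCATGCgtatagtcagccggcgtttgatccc
Mrpl43: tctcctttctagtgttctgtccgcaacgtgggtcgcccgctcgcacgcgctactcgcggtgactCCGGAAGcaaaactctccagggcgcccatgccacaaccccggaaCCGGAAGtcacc
Mrps22: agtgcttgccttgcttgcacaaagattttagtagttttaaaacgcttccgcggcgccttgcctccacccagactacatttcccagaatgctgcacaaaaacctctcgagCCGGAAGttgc
Mrpl9: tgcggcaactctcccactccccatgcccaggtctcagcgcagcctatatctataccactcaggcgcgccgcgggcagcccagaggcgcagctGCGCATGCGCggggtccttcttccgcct
Mrpl22 carries the NRF2, ETS and NRF1 letters in turn, Mrpl43, whose exons overlap the helicase gene Twnk on the other strand, carries the ETS letters in 2 places, Mrps22 carries them once, and Mrpl9 has 2 overlapping NRF1 matches. The next 3 belong to the members with a window whose changes against DMSO were the largest among those that passed: chr16:92058216-92058335 on the plus strand for Mrps6, chr17:35916441-35916560 on the minus strand for Mrps18b and chr3:32736756-32736875 on the minus strand for Mrpl47.
Mrps6: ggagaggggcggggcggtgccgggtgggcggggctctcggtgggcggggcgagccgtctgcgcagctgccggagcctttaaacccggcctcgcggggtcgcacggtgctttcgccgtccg
Mrps18b: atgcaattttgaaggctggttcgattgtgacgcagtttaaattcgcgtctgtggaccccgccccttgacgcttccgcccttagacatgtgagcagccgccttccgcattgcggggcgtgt
Mrpl47: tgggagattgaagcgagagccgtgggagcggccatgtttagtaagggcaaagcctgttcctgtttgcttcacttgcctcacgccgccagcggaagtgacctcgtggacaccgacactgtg
None of the 6 sets of letters stands in these 3 stretches; the Mrps18b window holds NRF1 and ETS letters outside the stretch shown. Among members with a window, the ETS letters stood in 17 of the 44 that were higher in Cardamonin (38.6%) and in 7 of the 19 that did not pass there (36.8%). For AEG 3482 the ETS shares were 42.9% of 35 higher members, 28.6% of 14 lower members and 31.6% of 19 that did not pass. NRF1 letters stood in 7 of the 44 members higher in Cardamonin and in 0 of the other 24. The E-box letters split likewise there, at 5 of the 44 and 0 of the other 24. For AEG 3482 the NRF1 shares were 11.4% of higher members, 7.14% of lower members and 10.5% of those that did not pass. NRF2 letters stood in 18.2% of the members higher in Cardamonin and 26.3% of those that did not pass there. These shares were not tested.

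In DMSO the members were expressed at moderate levels, with a median of 37.8 TPM against 16.1 TPM over all genes tested. Of the 77 members 74 averaged at least 10 TPM, and the median coefficient of variation between the 6 DMSO libraries was 6.93%. By the same measure cytosolic ribosomal protein genes had a median of 906 TPM and nuclear-encoded oxidative phosphorylation subunits 137 TPM. Among the members Mrps21, a small-subunit protein with a bacterial counterpart, was most abundant at 185 ± 12.3 TPM (SD, n = 6), with libraries from 167 to 201. Mrpl52 of the central protuberance, the knob of the large subunit that faces the small one, followed at 178 ± 13.2, and Mrpl17, near the exit of the peptide tunnel, at 153 ± 9.81. The libraries of Mrps21 and Mrpl52 overlapped, so their order is not set beyond their spread, and so did those of Mrpl52 and Mrpl17. Mrpl30 came after them at 108 ± 3.89, below every library of Mrpl17. At the other end stood Mrpl1 at 9.08 ± 0.40 TPM, Mrpl35 at 4.01 ± 0.23, and Mrpl42. Mrpl42 was listed at 0 in 4 of 6 DMSO libraries and at 1.72 and 1.0 TPM in the other two, so its abundance here rests on a few values near the bottom of the table. Mrpl1, Mrpl35 and Mrpl42 did not overlap each other in DMSO.

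Summed over the members, TPM averaged 3509 ± 134 (SD, n = 6) in DMSO and ranged from 3331 to 3731. Cardamonin reached 4146 ± 121 (n = 3) and every one of its libraries, from 4041 to 4279, lay above the DMSO range. AEG 3482 averaged 3848 ± 125 and Antimycin A 3773 ± 72.4, and the lowest library of each, at 3708 and 3721, lay just under the highest DMSO library. The other 5 compounds averaged between 3505 and 3648, and all of their libraries lay within the DMSO range. The Mrpl total was 1.59 ± 0.03 times the Mrps total in DMSO, 1.67 ± 0.02 in Cardamonin, 1.67 ± 0.04 in AEG 3482, 1.65 ± 0.04 in Antimycin A and 1.65 ± 0.02 in Podofilox (n = 3 each). All libraries of Cardamonin, AEG 3482 and Podofilox lay above the DMSO range of 1.55 to 1.62, those of Antimycin A overlapped it, and the other 4 compounds averaged 1.58 to 1.61.

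**Figure D1:**
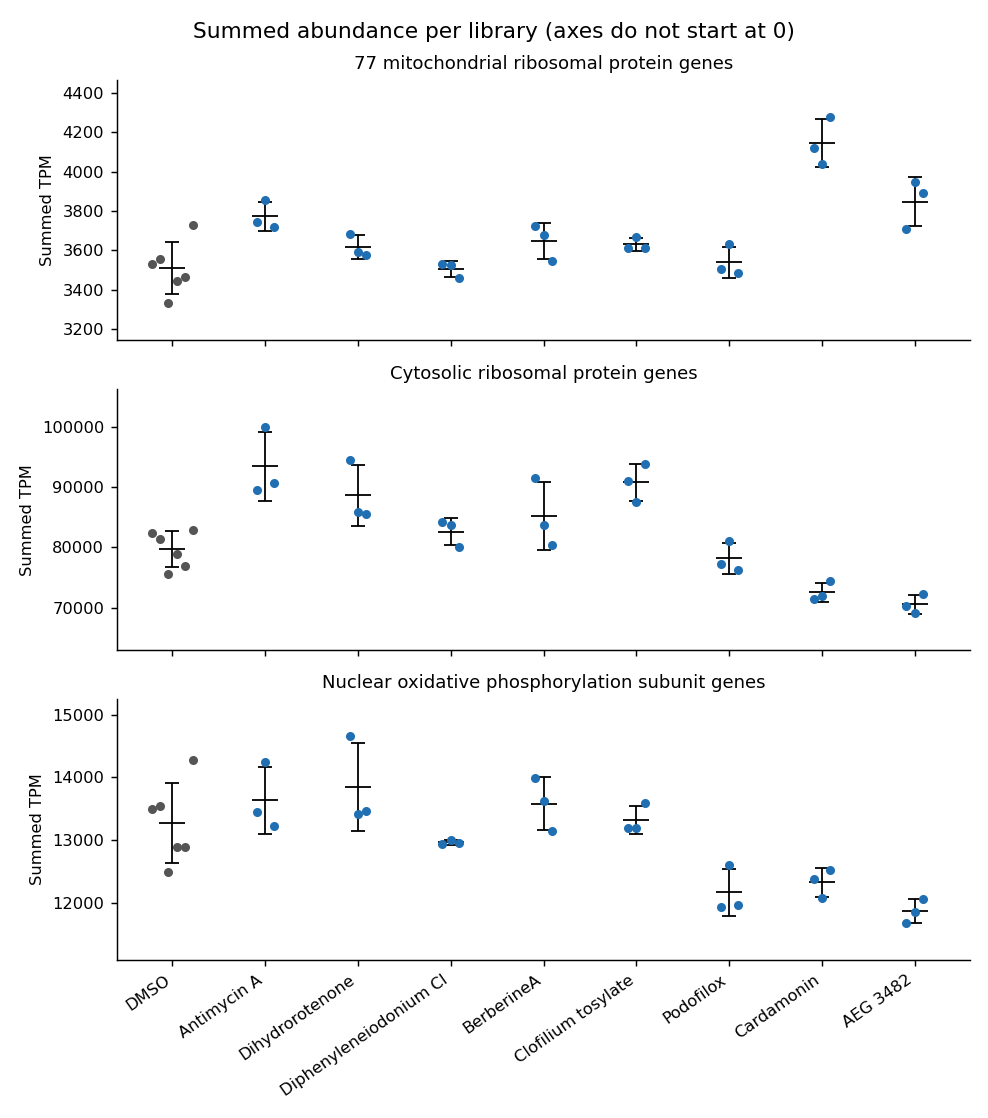
Summed TPM per library (points) with mean and SD (black bars) for the members (top), cytosolic ribosomal protein genes (middle) and nuclear oxidative phosphorylation subunit genes (bottom), by group; the vertical axes do not start at 0. The Cardamonin libraries lie at 4041 to 4279 TPM in the top panel, above all DMSO libraries, and at 71472 to 74374 TPM in the middle panel, below all DMSO libraries.

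Cardamonin gave the widest rise: 48 of the 77 members were higher than in DMSO (62.3%) and 8 were lower, by limma on log2(TPM + 1) with Benjamini-Hochberg adjustment over all 13644 genes tested and a threshold of 0.05, which holds for every call below. Over all genes tested 37.3% were higher and 33.0% lower, so the members' higher share stood above the background and their lower share, 10.4%, below it. The median log2 fold change was 0.26 for the members and 0.03 over all genes. Most shifts were small: 1 member moved 2-fold or more, against 14.5% of all genes. Of the large-subunit symbols 34 of 48 rose and 1 fell, and of the small-subunit symbols 14 of 29 rose and 7 fell.

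Mrps6, the counterpart of bacterial S6 in the small subunit, had the largest rise in Cardamonin, with 127, 116 and 124 TPM against a DMSO range of 45.6 to 56.7 (median 51.3). No Cardamonin library came near the DMSO libraries, and the log2 fold change was 1.24 (SE 0.05 and adjusted p = 2.52e-17 by limma). Mrps6 (chr16:92058270-92112227, plus strand) overlaps exons of Slc5a3, a myo-inositol transporter gene on the same strand, and shares 18.4% of its 31-base words with that gene and a predicted transcript there. Slc5a3 itself rose in Cardamonin, with a mean of 19.4 TPM against 11.0 in DMSO (0.77 on the log2 scale), and its part in the Mrps6 value was not tested. Mrps18b, one of 3 mammalian relatives of bacterial S18, came next at 87.6, 81.8 and 94.4 TPM against 42.7 to 53.1 in DMSO. Again all 3 libraries lay above DMSO, with a log2 fold change of 0.87 (SE 0.06 and adjusted p = 6.95e-13 by limma); 31.6% of its 31-base words occur elsewhere, mostly in the antisense gene Gm16279.

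Mrpl12, the stalk protein that recruits translation factors, rose from 37.7 ± 3.09 TPM to 63.1 ± 3.72 (n = 3). Its Cardamonin libraries (64.5, 58.9 and 65.9) did not overlap DMSO, and the log2 fold change was 0.73 (SE 0.07 and adjusted p = 3.5e-10 by limma). Mrpl38 of the central protuberance reached 77.6, 77.1 and 92.5 TPM against 42.0 to 52.5, a log2 fold change of 0.83. The 4 members printed with motif letters were picked partly for being higher here, so their values are only a description: 0.73 for Mrps22, 0.61 for Mrpl22, 0.48 for Mrpl43 and 0.26 for Mrpl9 on the log2 scale. Of these, Mrpl43 shares 38.5% of its 31-base words with other genes, most with Twnk, and Mrpl22 shares 29.8%. Mrpl20, known to bind the large ribosomal RNA early in assembly, rose from 77.9 ± 8.55 to 117 ± 3.70 TPM.

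Against this direction, Mrpl54, a large-subunit protein without bacterial counterpart, fell in Cardamonin to 54.8, 54.0 and 54.8 TPM from a DMSO range of 73.7 to 90.0. The log2 fold change was -0.59 (SE 0.07 and adjusted p = 1.02e-07 by limma), and it was the only one of the 48 Mrpl symbols that fell there. Mrps28, a small-subunit protein, fell to 20.9, 21.8 and 26.1 TPM from 26.4 to 37.0, a log2 fold change of -0.48. Its highest Cardamonin library lay just under the lowest DMSO library. Mrps15, the S15 counterpart, fell from 56.4 ± 1.87 to 41.7 ± 3.22 TPM. The other 5 that fell were Mrps36, Mrps14, Mrps34, Mrps16 and Mrps24, so 7 of the 8 carry small-subunit symbols; Mrps34, Mrps16 and Mrps24 are named after their values were seen, and Mrps34 shares 73.8% of its 31-base words with other genes. By role, 22 of 29 large-subunit proteins with a bacterial counterpart rose and 0 fell, 13 of 21 mitochondria-specific large-subunit proteins rose and 1 fell, and 5 of 8 near the tunnel exit rose and 0 fell. The 16 small-subunit proteins with a bacterial counterpart split 7 higher and 5 lower, with a median of 0.06. Of the 10 mitochondria-specific small-subunit proteins 6 were higher and 1 lower, with a median of 0.34. The 10 include Mrps18b and the 21 include Mrps18a, although both are relatives of bacterial S18. Over all genes tested 37.3% were higher and 33.0% lower in Cardamonin, so the split of the 16 was near the background. In Cardamonin the fibroblast marker sum was 4800 to 5970 TPM, below every DMSO library, and the leukocyte and macrophage sum was 28.6 to 44.9 TPM; chondrocyte markers summed to 6.44 to 6.79 TPM, above every DMSO library; their part in these results was not tested.

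In AEG 3482 nearly as many members changed, but in both directions: 38 were higher and 17 lower than in DMSO. The background was 41.3% of genes higher and 26.8% lower, and the members' shares of 49.4% and 22.1% stood close to it. The members' median log2 fold change was 0.16, and that of all genes was 0.10, both on the TPM scale. The split depends on the scaling: it became 25 higher and 25 lower with median-ratio scaling, which moves the median of the members to 0.05 and that of all genes to -0.01, and 26 and 25 with quantile normalization, where the medians were 0.02 and 0.04. Scaling without the 20 most abundant genes gave 30 and 22. The fibroblast marker sum was 13100 to 14400 TPM here, overlapping DMSO, and the leukocyte and macrophage sum was 18.8 to 20.5 TPM, below every DMSO library; chondrocyte markers summed to 7.15 to 7.86 TPM, above every DMSO library; their part was not tested.

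In AEG 3482 4 members moved 2-fold or more, against 10.4% of all genes. Mrps28 fell the most, to 8.83, 12.5 and 11.4 TPM from a DMSO range of 26.4 to 37.0 (median 32.9). All 3 libraries lay far below DMSO, with a log2 fold change of -1.50 (SE 0.09 and adjusted p = 1.91e-13 by limma); Mrps28 lies at chr3:8802146-8923918 on the minus strand and shares no 31-base word with another gene. Mrpl54 fell to 33.9, 46.4 and 35.9 TPM, a log2 fold change of -1.08 (SE 0.07 and adjusted p = 1.84e-12 by limma). This gene (chr10:81264713-81266934, minus strand) also shares no 31-base word with another. Mrpl47, the counterpart of bacterial L29 at the tunnel exit, fell to 4.99, 4.86 and 6.66 TPM from 10.2 to 14.3, a log2 fold change of -1.02. Exons of Mrpl47 overlap Ndufb5 and Actl6a on the other strand and 25.8% of its 31-base words occur elsewhere; Ndufb5 changed by -0.35 and Actl6a by -0.07 on the log2 scale, the latter without passing.

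Mrps6 rose to 107, 114 and 117 TPM, all above DMSO, a log2 fold change of 1.13 (SE 0.05 and adjusted p = 3.71e-16 by limma). Its neighbour Slc5a3 rose more in AEG 3482, from 11.0 to 41.1 TPM, and its part in the Mrps6 value was not tested. Slc5a3 was lower than DMSO in the 6 compounds other than Cardamonin and AEG 3482, and in those 6 Mrps6 did not pass in either direction. Mrpl20 rose to 112, 124 and 131 TPM from 67.8 to 93.3, and Mrps12, the counterpart of the decoding-centre protein S12, to 76.1, 82.1 and 84.9 from 47.9 to 56.7. Their log2 fold changes were 0.65 (SE 0.06) and 0.61 (SE 0.06), with no library overlapping DMSO in either case.

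**Figure D2:**
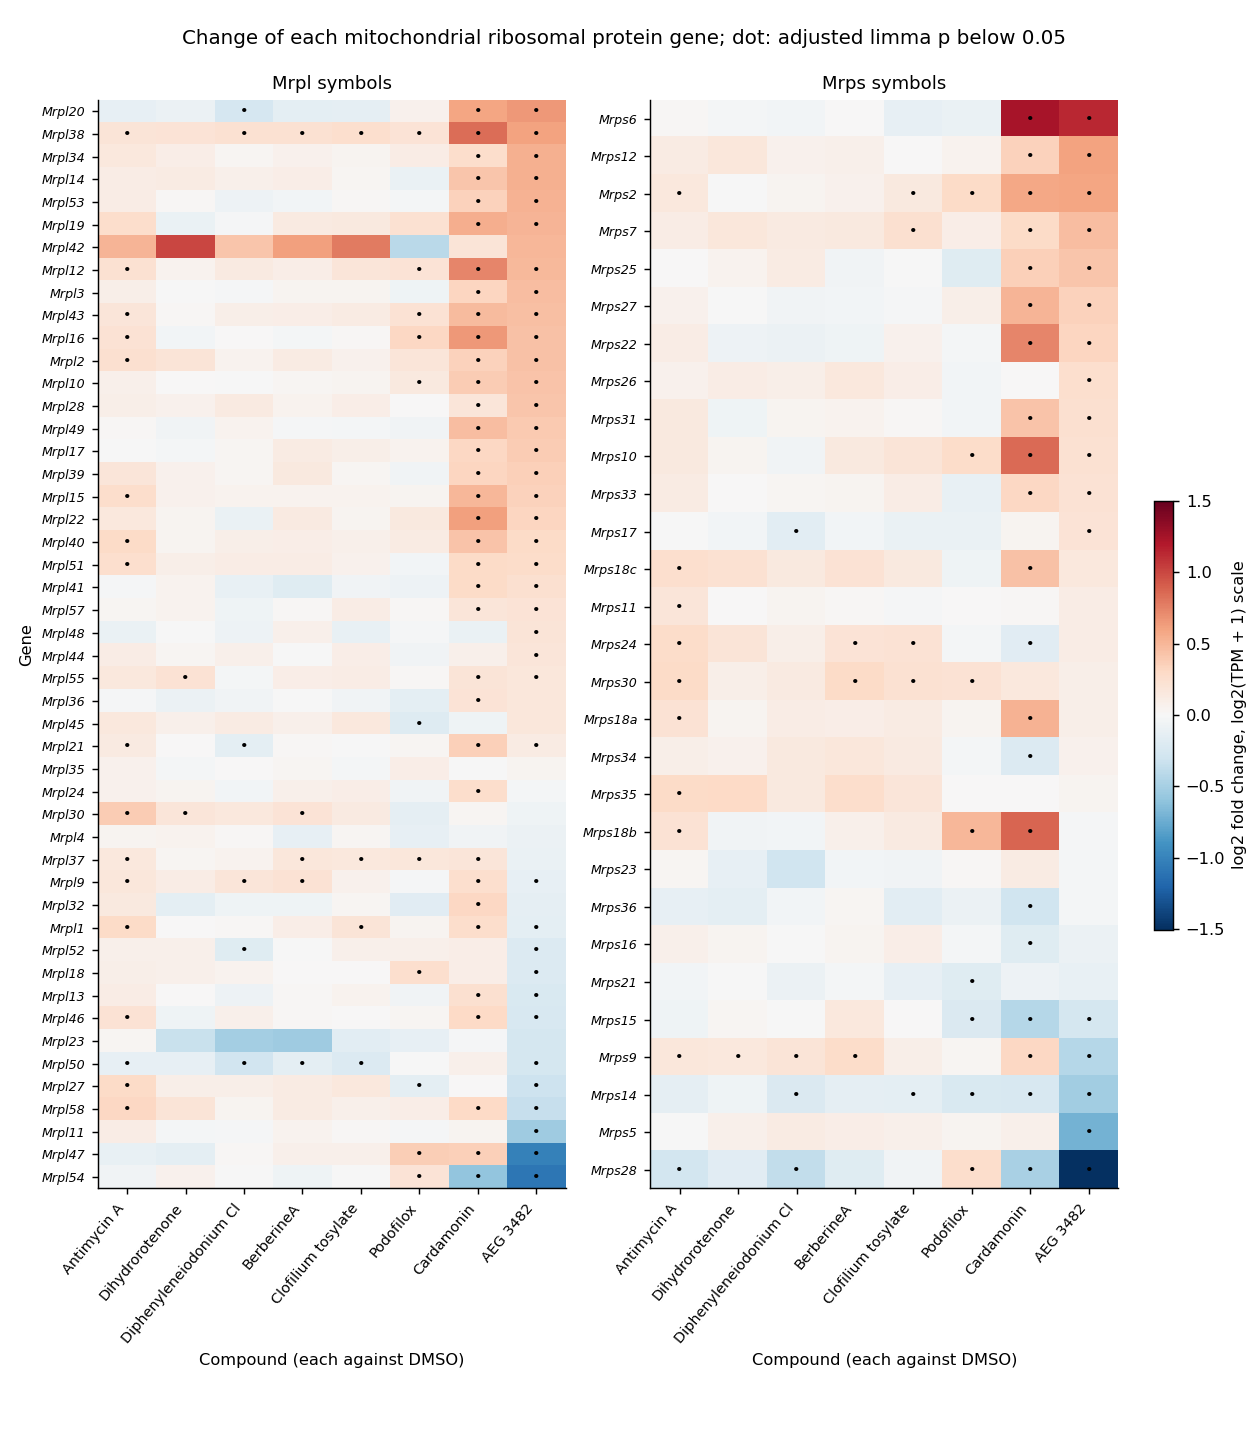
Log2 fold change against DMSO on the log2(TPM + 1) scale (colour) of every member (rows, ordered by the AEG 3482 value) in each compound (columns), large-subunit symbols left and small-subunit symbols right; dots mark adjusted limma p below 0.05. The Cardamonin column is mostly red with 48 higher calls, and the AEG 3482 column runs from Mrps6 at 1.13 to Mrps28 at -1.50.

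Within the large subunit, AEG 3482 calls in the central protuberance went both ways: 4 of its 9 proteins were higher and 5 lower. Over all genes tested 41.3% were higher and 26.8% lower in AEG 3482. Mrpl38 rose to 70.3, 71.0 and 68.3 TPM, while Mrpl58, a peptidyl-tRNA hydrolase that became a ribosomal protein and is known for rescuing stalled ribosomes, fell to 38.8, 40.5 and 41.6 TPM from 45.5 to 57.4. Under median-ratio scaling, quantile normalization and scaling without the 20 most abundant genes, the lower count was again 5 each time and the higher count 1, 1 and 2. All 6 calls among the 10 mitochondria-specific small-subunit proteins were upward on the TPM scale, and under these scalings the higher and lower counts were 3 and 1, 4 and 1, and 5 and 0. Mrps5, Mrps9 and Mrps14, small-subunit proteins with bacterial counterparts, fell by 0.70, 0.43 and 0.52 on the log2 scale, with every library below DMSO; Mrps5 was picked after its values were seen.

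The direct comparison of Cardamonin with AEG 3482 tests the difference between these 2 compounds. In it 32 members were higher in Cardamonin and 10 lower (41.6% and 13.0%), where 22.6% and 32.7% of all genes were. Median-ratio scaling gave 34 and 2, and quantile normalization 34 and 5. Mrpl47 differed most, at 15.8 ± 1.66 TPM in Cardamonin and 5.51 ± 1.01 in AEG 3482 (n = 3 each), a log2 difference of 1.37 (SE 0.13 and adjusted p = 1.36e-09 by limma). Mrps28 followed with 1.02, Mrps18b with 0.89, Mrps5 with 0.78, Mrps9 with 0.74, Mrpl58 with 0.64, Mrps10 with 0.63, Mrpl11 with 0.58, Mrpl46 with 0.54 and Mrpl54 with 0.49, and no library overlapped between the compounds for any of these 9. Mrps10, Mrpl11 and Mrpl46 are named after their values were seen. For Mrps6 the log2 difference was 0.12 (SE 0.06 and adjusted p = 0.0957 by limma), with overlapping libraries, and for Mrpl20 it was -0.05 (SE 0.07 and adjusted p = 0.564 by limma).

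Podofilox changed fewer members and not in one direction: 14 were higher and 5 lower than in DMSO (18.2% and 6.49%), where 26.2% and 20% of all genes were. The median log2 fold change was 0.003, against 0.04 over all genes. The split was 10 and 7 with median-ratio scaling, 10 and 8 with quantile normalization, and 14 and 2 with the 20 most abundant genes left out of the scaling; 10 members passed without Podofilox replicate 2 and 12 without replicate 3. Fibroblast markers summed to 10300 to 10400 TPM and leukocyte and macrophage markers to 20.5 to 22.4 TPM, both below every DMSO library, and chondrocyte markers to 6.99 to 7.75 TPM, above every DMSO library; their part was not tested. Mrps18b rose the most, to 65.5, 65.4 and 71.7 TPM from 42.7 to 53.1, all above DMSO, with a log2 fold change of 0.50 (SE 0.06 and adjusted p = 1.07e-07 by limma). Mrpl47 reached 18.9, 14 and 15.3 TPM from 10.2 to 14.3, a log2 fold change of 0.37 that did not pass without Podofilox replicate 1. The largest falls were Mrps14, to 55.6, 60.8 and 58.0 TPM from 63.0 to 71.8, and Mrps15, to 51.0, 48.4 and 45.2 TPM from 54.8 to 59.9, each with all libraries below DMSO and a log2 fold change of -0.22. Mrps28 and Mrpl54, which were lower in Cardamonin and AEG 3482, were higher here by 0.26 and 0.20 on the log2 scale. Both of these calls were lost with median-ratio scaling, with quantile normalization, without Podofilox replicate 2 or 3, and without a DMSO library (replicate 4 for Mrps28, replicate 5 for Mrpl54).

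Set directly against Podofilox, Cardamonin had 40 members higher and 4 lower (51.9% and 5.19%), where 28.7% and 29.1% of all genes were. The median log2 difference was 0.24 for the members and -0.001 for all genes. Mrps6 differed by 1.34 (SE 0.06 and adjusted p = 3.62e-16 by limma), and Mrps18b, high in both, still by 0.37 (SE 0.07 and adjusted p = 3.21e-05 by limma). The 4 lower members were Mrpl54 at -0.79, Mrps28 at -0.74, Mrps36 at -0.21 and Mrps15 at -0.21. The call of Mrps36 was lost without Cardamonin replicate 1 or without any 1 of the 3 Podofilox libraries, and that of Mrps15 without replicate 1 of either compound.

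**Figure D3:**
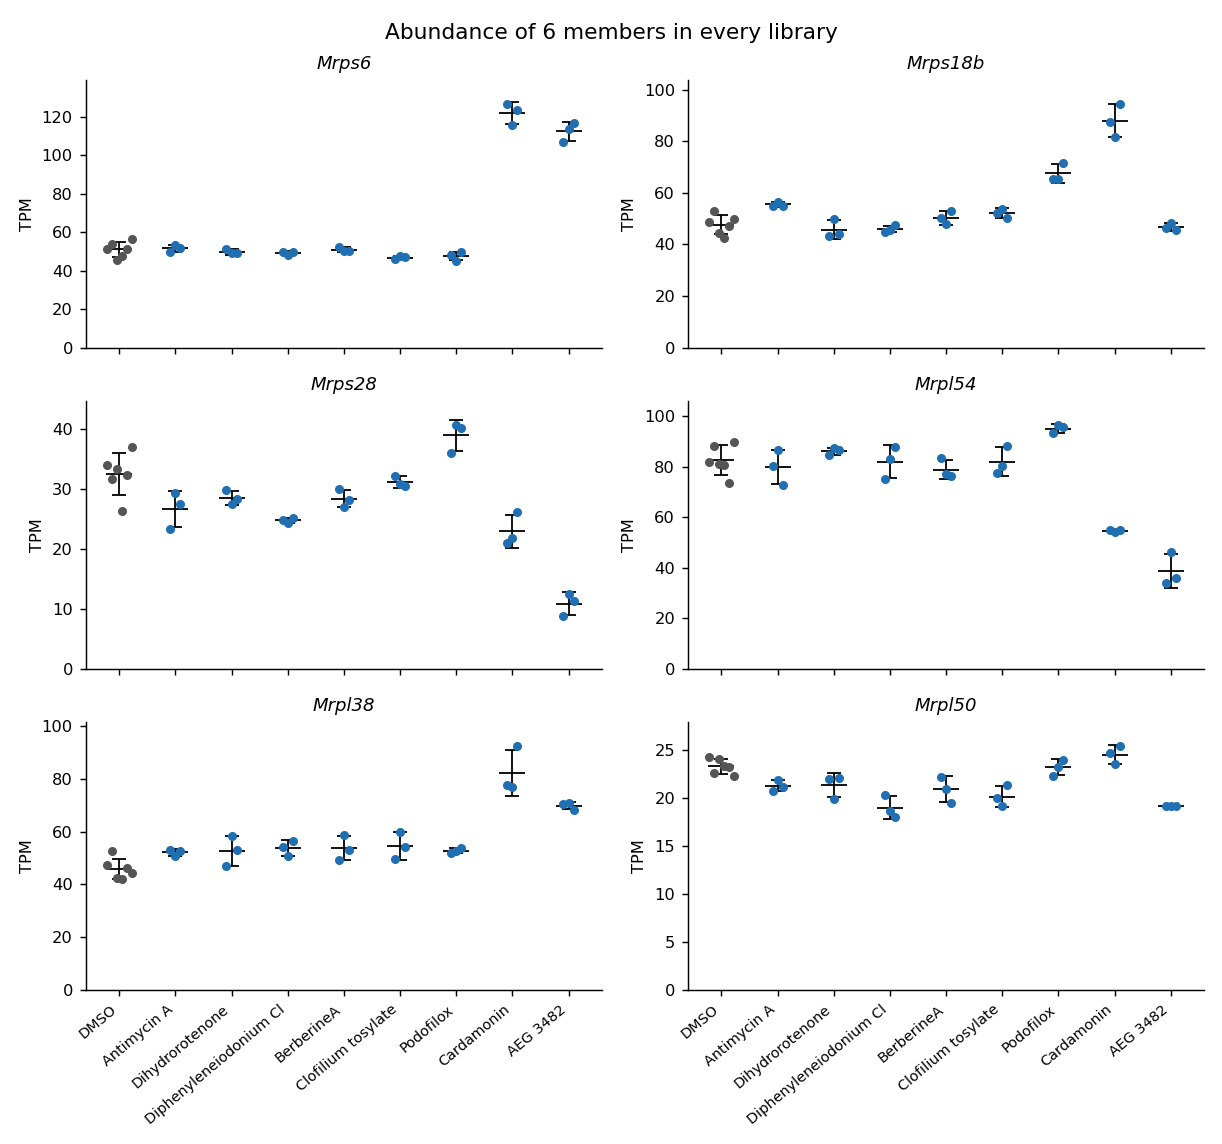
TPM (vertical axes from 0) of 6 members in each of the 30 libraries (points; DMSO grey, compounds blue), with group mean and SD in black. Mrps6 is high in Cardamonin and AEG 3482, Mrps28 and Mrpl54 are lowest in AEG 3482, and Mrps18b is high in Cardamonin and Podofilox. Mrpl38 is highest in Cardamonin, followed by AEG 3482, and Mrpl50 shifts by smaller amounts.

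Among the respiratory chain inhibitors, Antimycin A had 25 members higher and 2 lower (32.5% and 2.60%), where 21.8% and 15.5% of all genes passed. The median log2 fold change was 0.12, against 0.03 for all genes, and no member reached 2-fold. Quantile normalization gave 17 and 4. Without Antimycin A replicate 1 the counts were 16 and 0. Mrpl30, the L30 counterpart, rose the most, to 132, 150 and 141 TPM from 103 to 115, all above DMSO, with a log2 fold change of 0.38 (SE 0.06 and adjusted p = 2e-05 by limma). Mrpl58 rose to 59.8, 69.9 and 62.1 TPM from 45.5 to 57.4, also without overlap, with a log2 fold change of 0.31 (SE 0.07 and adjusted p = 0.00122 by limma). In Antimycin A the fibroblast marker sum was 9040 to 9620 TPM and the leukocyte and macrophage sum 17.4 to 19.5 TPM, both below every DMSO library, and their part in these results was not tested. Of the 9 central protuberance proteins 5 rose and 0 fell in Antimycin A. The 2 that fell were Mrps28, to 23.3, 29.3 and 27.5 TPM, and Mrpl50, to 20.7, 21.9 and 21.2 TPM from 22.3 to 24.3. The Mrps28 call was lost without Antimycin A replicate 1, and that of Mrpl50 without Antimycin A replicate 1 or 3 or DMSO replicate 1, 3, 4 or 5.

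Dihydrorotenone, which acts on complex I, changed 3 members, all upward (3.90%), where 4.95% of all genes were higher and 9.43% lower, with 0 members lower. The fibroblast marker sum, 10800 to 11500 TPM, and the leukocyte and macrophage sum, 21.7 to 23.4 TPM, lay below every DMSO library, and their part was not tested. Mrps9 had 28.9, 29.6 and 27.9 TPM against 23.4 to 27.8, a log2 fold change of 0.15 (SE 0.04 and adjusted p = 0.0211 by limma). Mrpl55 of the central protuberance had 22.9, 22.4 and 23.4 TPM against 18.6 to 21.7, and Mrpl30 121, 126 and 121 TPM against 103 to 115. All 3 stood above DMSO in every library, by 0.15 to 0.22 on the log2 scale. The calls of Mrpl55 and Mrpl30 were lost without any 1 of the 3 Dihydrorotenone libraries or of DMSO replicates 1 to 5, and that of Mrps9 without Dihydrorotenone replicate 1 or 2. The count was 1 without Dihydrorotenone replicate 1 or DMSO replicate 4 and 5 without DMSO replicate 6.

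Antimycin A and Dihydrorotenone differed directly in 12 members, all higher in Antimycin A (15.6% against 11.6% of all genes higher and 3.91% lower). The median log2 difference of the members, 0.07, was near that of all genes, 0.06. The count fell to 1 with median-ratio scaling or quantile normalization, to 7 without Antimycin A replicate 1, and to 5 without Antimycin A replicate 2 or Dihydrorotenone replicate 2 or 3. Mrps18b, at 55.6 ± 0.87 against 45.8 TPM, differed by 0.28 (SE 0.07 and adjusted p = 0.00534 by limma). Antimycin A and Clofilium tosylate differed in 3 members, Mrpl30, Mrpl15 and Mrpl51, all higher in Antimycin A (3.90% against 3.85% of genes higher and 1.36% lower). That count was 1 without Antimycin A replicate 1 or 3, and 0 without Antimycin A replicate 2 or Clofilium tosylate replicate 1 or 2.

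Diphenyleneiodonium Cl moved 10 members, 3 up and 7 down (3.90% and 9.09%), where 14% of genes were higher and 11.7% lower. The fibroblast marker sum, 10600 to 11100 TPM, lay below every DMSO library, and its part was not tested. The largest falls were Mrps28, to 24.8, 24.3 and 25.3 TPM, with a log2 fold change of -0.37 (SE 0.09 and adjusted p = 0.00338 by limma), and Mrpl50, to 20.4, 18.6 and 18.0 TPM, at -0.28 (SE 0.05 and adjusted p = 7.29e-05 by limma). All libraries of both lay below DMSO. Mrpl38 and Mrps9 led the rises, at 54.3, 50.8 and 56.4 TPM and at 30.5, 29.9 and 28.7 TPM. Their log2 fold changes were 0.23 and 0.20, and the Mrpl38 call was lost without Diphenyleneiodonium Cl replicate 1 or 3.

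BerberineA moved 8 members, 7 up and 1 down (9.09% and 1.30%), where 12.6% and 9.16% of all genes passed; without BerberineA replicate 2 the count was 5. The split was 6 and 2 with quantile normalization and 6 and 3 with the 20 most abundant genes left out of the scaling. The fibroblast marker sum was 10800 to 11100 TPM, below every DMSO library, and its part was not tested. Mrps30, which sits in the large subunit despite its symbol, rose to 25.5, 27.9 and 29.0 TPM from 20.3 to 24.8, a log2 fold change of 0.29 (SE 0.07 and adjusted p = 0.00543 by limma). Mrps9 reached 32.1, 29.6 and 32.8 TPM, a log2 fold change of 0.28 (SE 0.05 and adjusted p = 4.76e-05 by limma). Both stood above DMSO in all 3 libraries. The 1 lower member was Mrpl50, at 22.2, 21 and 19.5 TPM, and its call was lost without BerberineA replicate 2 or 3.

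Clofilium tosylate moved 9 members, 7 up and 2 down (9.09% and 2.60%), where 10.9% and 12.5% of all genes passed. Quantile normalization gave 8 and 1. The sums of the fibroblast markers, 9890 to 10500 TPM, and of the leukocyte and macrophage markers, 20.1 to 21.2 TPM, lay below every DMSO library; their part was not tested. Leaving out Clofilium tosylate replicate 2 gave 4 members, and leaving out replicate 3 gave 5. Mrpl38 had 49.6, 60.0 and 54.1 TPM and Mrps7, the counterpart of S7, 39.4, 43.3 and 47.3 TPM, with log2 fold changes of 0.25 and 0.24 and libraries that overlapped DMSO. The Mrpl38 call was lost without Clofilium tosylate replicate 2 and the Mrps7 call without replicate 3. The lower members were Mrpl50, at 20, 19.1 and 21.3 TPM, and Mrps14, at 66.3, 56.3 and 61.2 TPM; the Mrps14 call was lost without Clofilium tosylate replicate 2 or 3 or DMSO replicate 1, 2, 5 or 6.

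Across all 9 groups, 68 of the 77 members differed by limma's moderated F test, as did 86.3% of all genes tested. Of the members 46 passed upward in at least 1 compound and downward in none, 11 downward and never upward, 15 in both directions, and 5 in no compound. Of all genes tested, 38.4% passed only upward, 24.3% only downward, 27.1% in both directions and 10.1% in no compound. Mrpl38 passed in the most compounds, 7, always upward, from 0.19 in Antimycin A to 0.83 in Cardamonin on the log2 scale. Only its Cardamonin and AEG 3482 calls passed without each library in turn; the Antimycin A call was lost without any Antimycin A library or DMSO replicate 3, 4, 5 or 6, the BerberineA call without BerberineA replicate 2 or 3 or DMSO replicate 3 or 4, and the Podofilox call without any Podofilox library or DMSO replicate 3 or 4. Mrpl50, a large-subunit protein without bacterial counterpart, and Mrps14 passed in 5 compounds each and always downward. Mrpl50 ranged from -0.28 in Diphenyleneiodonium Cl to -0.13 in Antimycin A, but was 0.34 higher in Cardamonin than in AEG 3482 (SE 0.06). Mrps9 passed in 6 compounds, upward in 5 and downward in AEG 3482, where it had 18.7, 19.7 and 18.3 TPM against 23.4 to 27.8 in DMSO.

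The 5 members that passed in no compound were Mrpl4, Mrpl23, Mrpl35, Mrpl42 and Mrps23. Mrpl35 stayed between 3.52 and 4.52 TPM in all 30 libraries. Mrpl4, at 37.8 ± 2.23 TPM in DMSO, moved most in Podofilox, by -0.13 (SE 0.07 and adjusted p = 0.119 by limma). Mrpl23 and Mrps23 varied more between DMSO libraries, at 26.2 ± 5.79 and 29.0 ± 3.73 TPM. Their largest shifts were -0.54 in BerberineA for Mrpl23 (SE 0.24 and adjusted p = 0.112 by limma) and -0.29 in Diphenyleneiodonium Cl for Mrps23 (SE 0.12 and adjusted p = 0.0711 by limma). Mrpl23 shares 14.2% of its 31-base words with other genes, among them a pseudogene copy.

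The 3 Mrps18 genes are paralogs whose proteins hold different places, Mrps18a in the large subunit, Mrps18b and Mrps18c in the small one. In DMSO they lay close together at 44.8 ± 2.33, 47.6 ± 3.78 and 39.9 ± 3.92 TPM, with overlapping libraries. In Cardamonin all 3 rose without overlap, Mrps18a to 61.8, 65.7 and 66.2 TPM, Mrps18b to the values above, and Mrps18c to 55.6, 50.8 and 56.8 TPM. Their log2 fold changes there were 0.52, 0.87 and 0.44. Mrps18c overlaps exons of Gm43511 on the same strand and shares 34.5% of its 31-base words with other genes. In Podofilox Mrps18b passed upward, whereas Mrps18a had 48.4, 44.7 and 44.8 TPM and Mrps18c 41.3, 36.5 and 36.0 TPM and neither passed. In AEG 3482 none of the 3 passed, with Mrps18b at 46.5, 48.4 and 45.5 TPM. In Antimycin A all 3 were higher, by 0.22, 0.22 and 0.25, and the Mrps18c call was lost without Antimycin A replicate 1 or 2 or DMSO replicate 3 or 6. The symbol Mrps36 belongs to a protein now known as part of the alpha-ketoglutarate dehydrogenase complex; it passed in Cardamonin alone among the compounds, at 32.2, 37.2 and 38.2 TPM against 36.6 to 49.6, a log2 fold change of -0.30 with libraries that overlapped DMSO.

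Genes that work with the mitochondrial ribosome were then counted, with 37.3% of all genes higher and 33.0% lower in Cardamonin, and 41.3% and 26.8% in AEG 3482, as the background. Of 15 translation factors and messenger RNA partners 11 were higher and 4 lower in Cardamonin, with a median of 0.27, and 9 higher and 4 lower in AEG 3482. Lrpprc, which stabilises mitochondrial messenger RNAs, changed by 0.96 in Cardamonin and 0.52 in AEG 3482 on the log2 scale, and the elongation factor Gfm1 by 0.73 and 0.63. Guf1, a ribosome-binding GTPase, fell by 0.77 and 1.0, and Oxa1l, which inserts the new proteins into the inner membrane, changed by -0.49 and -0.40. In Antimycin A Oxa1l was higher, by 0.42. Among 25 assembly and RNA modification factors the counts were 9 higher and 3 lower in Cardamonin and 6 and 8 in AEG 3482, with medians of 0.07 and 0.002; the share higher in Cardamonin was near the background. Trub2, a pseudouridine synthase, changed by 0.95 in Cardamonin, and Eral1, the chaperone of the small ribosomal RNA, by -0.82 in AEG 3482. Mpv17l2, which associates with the large subunit, changed by 0.83 and 1.19.

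The 5 mitochondrial ribosomal proteins whose symbols do not begin with Mrp did not move as one: 2 were higher and 2 lower in Cardamonin. Aurkaip1, of the small subunit, passed upward in 6 compounds, from 0.16 in Cardamonin to 0.30 in Antimycin A, whereas Chchd1 fell by 0.68 in AEG 3482. Of 7 tested regulators of mitochondrial genes 4 were higher and 0 lower in Cardamonin, and 5 higher and 1 lower in AEG 3482. Gabpb1, a partner of GABPA, changed by 0.76 and 0.85 in these compounds, Myc by 0.68 and 0.92, and Gabpa itself by -0.0035 in Cardamonin, without passing, and -1.02 in AEG 3482. Of 11 genes for mitochondrial DNA transcription and replication 5 were higher and 1 lower in Cardamonin, where 37.3% and 33.0% of all genes were. One of them, Twnk, overlaps Mrpl43 and changed by 0.77 there, and its part in the Mrpl43 value was not tested.

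The cytosolic ribosome and the respiratory chain were counted in the same way. Of 83 cytosolic ribosomal protein genes 14 were higher and 42 lower in Cardamonin, with a median log2 fold change of -0.15, and 8 higher and 44 lower in AEG 3482, with -0.17. Of 79 nuclear oxidative phosphorylation subunits 8 were higher and 33 lower in Cardamonin, 8 and 41 in AEG 3482, and 5 and 31 in Podofilox. More genes of both groups were lower than higher in Cardamonin and AEG 3482 under all scalings tried. In Antimycin A 56 of the 83 cytosolic genes were higher and 0 lower, with a median of 0.22. All genes passed there at 21.8% higher and 15.5% lower. In Dihydrorotenone 34 of the 83 cytosolic genes and 3 of the 77 members (3.90%) were higher. The members' share was near that of all genes, where 4.95% were higher and 9.43% lower. The 13 proteins encoded by mitochondrial DNA, which this ribosome translates, had 2 higher and 9 lower transcripts in Antimycin A, with a median of -0.55, and 10 higher and 0 lower in Dihydrorotenone, with 0.32. In Cardamonin 2 of those 13 were lower, with a median of -0.09 that turned positive with quantile normalization. No test compared the lists with each other.

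**Figure D4:**
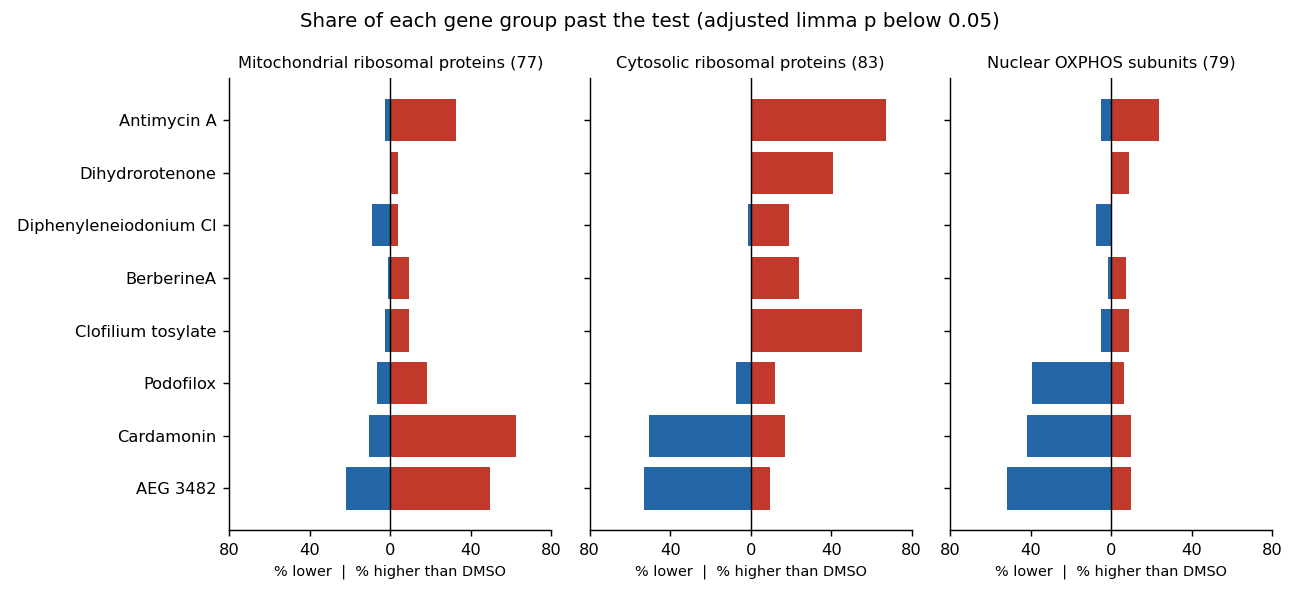
Percentage of genes higher (red, right) and lower (blue, left) than DMSO at adjusted limma p below 0.05, by compound, for the 77 members, 83 cytosolic ribosomal protein genes and 79 nuclear oxidative phosphorylation (OXPHOS) subunits. In Cardamonin 62.3% of members were higher, whereas 42 of 83 cytosolic genes and 33 of 79 OXPHOS subunits were lower. Over all genes tested 37.3% were higher and 33.0% lower there.

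The genes outside the family whose level over the 9 groups was most like the members' mean log2(TPM + 1) were Coa4, Ak6, Nab1, Exosc9 and Mfsd1, with Pearson's r of 0.967 to 0.972 over 9 group means, among 9794 protein-coding genes averaging at least 5 TPM. They are given as a description, since all values share libraries. Coa4, an assembly factor of cytochrome c oxidase, stood at 7.80 TPM in DMSO and changed by 0.85 in Cardamonin, 0.50 in AEG 3482 and 0.36 in Antimycin A.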

How the data were processed

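RNA sequencing of 30 libraries was analysed from the table of TPM values that the authors deposited, with 1 column per library. Per the labels' protocols, the libraries were made from ribosome-depleted total RNA and read on an Illumina machine. The submitters' processing notes name FastQC, kallisto 0.43.1 and mm10, and the series text names tximport and DESeq2. Whether counting used strand is not given in the sources used here, so reads of a gene and of an antisense neighbour may not be told apart. Exons of 7 members overlap another gene on the same strand and those of 28 on the other strand; 29 members share at least 10% of their 31-base words with another gene in the GENCODE M21 transcripts, and kallisto may split such reads.

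Symbols and gene positions (GRCm38, the build of mm10) come from GENCODE M21, which matched 29505 of 29861 identifiers, and promoter windows from RefSeq GRCm38.p6. Tests used every gene that reached 1 TPM in 3 or more libraries, on log2(TPM + 1), a pseudocount of 1 that understates the changes of low genes. All 30 libraries entered 1 limma fit (limma 3.58.1, R 4.3.3) with 1 mean per group and an intensity trend; the scripts were first tested on simulated data. Comparisons with DMSO share the 6 DMSO libraries. The members, gene lists and tests were chosen with earlier results of these data known. Named members are, per compound, the 2 largest rises and falls that passed, the 3 most and least abundant in DMSO, those passing one way in at least 7 compounds, those passing in none, the Mrps18 genes, Mrpl12, Mrps12 and Mrps36; others are marked where they appear. Alternatives covered pseudocount, filter, scaling, trend, fits of 2 groups, a replicate block, each library left out and, chosen after seeing the data, the 48 members sharing under 10% of 31-base words. TPM keeps no depth, so no counting intervals are given.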

Additional observations from a re-analysis of the deposited data

Results flagged for a closer look

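In all, 35 sets of 6 DMSO libraries were screened, those of the named members among them. Of these sets 2 held a value set apart from the rest by more than Dixon's critical ratio of 0.625 for 6 samples. Chance gives about 1 in 20. Mrpl55 had 21.7 TPM in DMSO replicate 6, where the nearest library had 19.8 TPM and the gap was 0.628 of the range. Mrps15 had 59.9 TPM in DMSO replicate 2, where the nearest library had 56.3 TPM and the gap was 0.695 of the range. Without DMSO replicate 6 the Mrpl55 call in Dihydrorotenone passed, and the Mrps15 calls in Cardamonin, AEG 3482 and Podofilox passed without DMSO replicate 2.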

How the results depend on the processing

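Counts of members past the threshold in the other comparisons stayed within 1.5 times under the settings run, apart from the libraries left out below, and no named member reversed its direction. Dihydrorotenone, with 3 members past the threshold, gave 1 without the low-value filter, without the intensity trend, with the replicate block or with the 20 most abundant genes left out of the scaling, 5 with a mean of at least 5 TPM, 6 with median-ratio scaling and 7 with quantile normalization. Antimycin A against Clofilium tosylate (3) gave 1 without the filter, without the trend or with the block, and 0 with median-ratio scaling, quantile normalization, the 20 most abundant genes left out or only the 2 groups in the fit. Antimycin A against Dihydrorotenone (12) gave 1 with median-ratio scaling or quantile normalization, 5 with the 20 most abundant genes left out and 3 with 2 groups only. Fits of 2 groups gave 6 for Diphenyleneiodonium Cl, 5 for BerberineA and 3 for Clofilium tosylate. Leaving out each library gave ranges of 16 to 28 for Antimycin A, 1 to 5 for Dihydrorotenone, 8 to 10 for Diphenyleneiodonium Cl, 51 to 57 for Cardamonin, 5 to 12 for BerberineA, 4 to 12 for Clofilium tosylate, 50 to 56 for AEG 3482 and 10 to 20 for Podofilox. The ranges were 34 to 40 for Cardamonin against AEG 3482, 40 to 50 for Cardamonin against Podofilox, 5 to 9 and 0 to 2 for Antimycin A against Dihydrorotenone and Clofilium tosylate, and 64 to 69 for the F test. The members' median in Podofilox (0.003) became -0.031 with median-ratio scaling, -0.034 with quantile normalization, -0.014 without Podofilox replicate 2 (0.026 without replicate 3, the highest value with a library left out), and between -0.0069 and -0.0012 without DMSO replicate 2 (-0.0037), 3, 4 (-0.0043) or 5; that of Antimycin A against Dihydrorotenone became -0.0028 with quantile normalization. The cause was not tested.

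Libraries with the same replicate number in different groups deviated together with a mean correlation of 0.007 (-0.107 to 0.151). The mean for different numbers was -0.004 (-0.161 to 0.135). The same libraries enter both means, so they are not independent and do not settle whether replicate numbers pair samples. Among the 48 members sharing under 10% of their 31-base words, a choice made after seeing the data, 29 were higher and 5 lower in Cardamonin, 23 and 12 in AEG 3482, 16 and 2 in Antimycin A, and 8 and 2 in Podofilox. With the replicate block 58 members passed in Cardamonin, 54 in AEG 3482, 25 in Antimycin A and 13 in Podofilox. Of the alternative values of the named members' calls 2027 still passed and 222 no longer did. With 3 libraries per compound small changes can be missed, and larger ones where libraries vary more. For example, Mrpl23 at -0.54 on the log2 scale in BerberineA did not pass. TPM hides depth.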
